A study of Mus musculus with 10 samples.

Results

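The repressing proteins of the mammalian circadian clock, and enzymes that act on them, are encoded by *Per1*, *Per2*, *Per3*, *Cry1*, *Cry2*, *Ciart*, *Csnk1d*, *Csnk1e*, and *Fbxl21*. These 9 genes were taken by name from a table of 55426 mouse genes, of which 15668 had a mean TPM of at least 0.5 over the aortas and were tested (TPM give the abundance of a transcript relative to its length and to the library), and all 9 were among those tested. RNA-Seq had been performed on 3 Prdm16SMKO and 3 control samples of mouse thoracic aorta. The genotype was Prdm16f/f in the controls and Prdm16f/f with SMMHC-CreERT2 in the Prdm16SMKO group. Both groups therefore carried the floxed allele of *Prdm16*, which encodes a zinc finger transcriptional regulator, and only the Prdm16SMKO mice carried the tamoxifen-activated Cre recombinase, which is driven by the promoter of the smooth muscle myosin heavy chain gene *Myh11*. By the study's Methods the mice had a C57BL/6J background, recombination was induced in adult animals with tamoxifen, and this Cre line was used for males. The age and the hour of the day at which these aortas were taken, and whether these controls received tamoxifen, are not given in the sources used here. The TPM of the whole gene do not resolve the floxed exons, and the presence of Cre and the loss of *Prdm16* cannot be told apart between these groups. Any difference between the groups in the hour of harvest or in tamoxifen cannot be told apart from the genotype either.

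In the clock of mammalian cells, CLOCK or NPAS2 pairs with BMAL1 and activates transcription from E-box sequences, and the targets include the *Per* and *Cry* genes. PER and CRY proteins enter the nucleus in a common complex and repress CLOCK:BMAL1, and CIART, also called CHRONO, is a further repressor that binds BMAL1. The casein kinases CK1δ and CK1ε phosphorylate PER proteins and so set how long they last, while the F-box protein FBXL21 attaches ubiquitin to CRY proteins. Blood vessels hold such clocks, and the mRNA of most of these genes normally cycles over the day.

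*Prdm16* itself was at 56.07, 47.56, and 40.28 TPM in control aortas 1 to 3 and at 23.31, 33.32, and 23.42 TPM in Prdm16SMKO aortas 1 to 3. The groups did not overlap, and 55.6% of the mean level in controls was left in Prdm16SMKO aortas (−0.85 as a log2 fold change, adjusted *P* = 0.0725 by limma). The aortas held the markers of their labelled tissue, since the summed level of *Myh11*, *Acta2*, *Tagln*, *Cnn1*, *Smtn*, *Lmod1*, and *Mylk* was 21139 to 24654 TPM in control and 14138 to 18286 TPM in Prdm16SMKO aortas. These smooth muscle sums did not overlap between the groups, while 0 of the 7 genes passed the test (4 had an unadjusted *P* under 0.05), led by *Acta2* (−0.63 as a log2 fold change, adjusted *P* = 0.0719 by limma), *Cnn1* (−0.47), and *Lmod1* (−0.45). The summed markers of endothelium, fibroblasts, brown adipocytes, skeletal muscle, macrophages, red cells, and Schwann cells overlapped between the groups, with 0 genes called by limma and 3 with an unadjusted *P* under 0.05, and no marker was at 0 in every aorta. The part of the lower smooth muscle sum in the results below was not tested, and in bulk tissue fewer cells of a type and less RNA per cell cannot be told apart.

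In the fit over all tested genes, 168 of 15668 genes (1.07%) passed an adjusted *P* of 0.05, 61 (0.389%) with a higher and 107 (0.683%) with a lower level in Prdm16SMKO aortas. Of the 9 clock genes, *Cry1* and *Ciart* passed, both higher. In 4 of the 9 (*Per1*, *Per2*, *Cry1*, and *Ciart*) all Prdm16SMKO aortas lay above all control aortas, a pattern found in 4.08% of all tested genes, and 7 of the 9 had a log2 fold change above 0, against 32.1% of all tested genes. The median log2 fold change was 0.52 for the 9 genes and −0.12 for all tested genes. After median ratio rescaling, in which the typical gene is set to the same level in every aorta, the median of all tested genes moved to 0.00 and that of the 9 genes to 0.64, and *Cry1* and *Ciart* were again the members that passed. After this rescaling 413 genes (2.64%) passed, 200 higher (1.28%) and 213 lower, and *Per3* and *Csnk1e* joined the clock genes whose groups did not overlap, which made 6 of 9 against 11% of all tested genes.

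**Figure D1:**
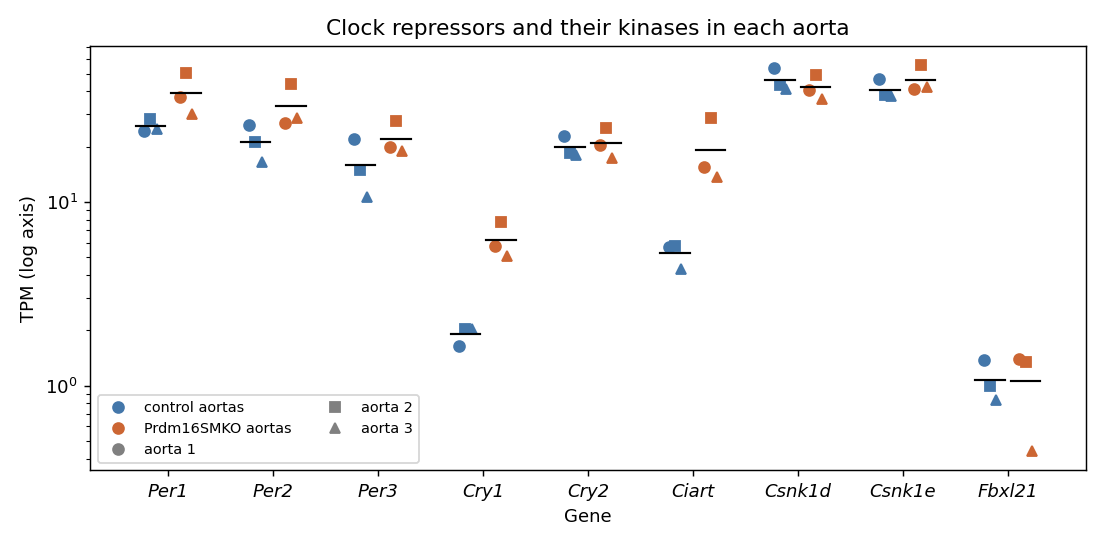
TPM (log axis) of the 9 clock genes in each of the 3 control and 3 Prdm16SMKO aortas, with a horizontal bar at each group's mean. *Cry1* and *Ciart* stand apart between the groups, Prdm16SMKO aorta 2 is the highest of its group for every gene but *Fbxl21*, and the points of *Per3*, *Cry2*, *Csnk1d*, *Csnk1e*, and *Fbxl21* overlap.

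Binding of PRDM16 was measured in other cells, primary vascular fibroblasts of wild-type mice, which received PRDM16 with a Flag tag, or a vector without it, by lentivirus over 48 hours. Puromycin at 2 μg/mL then selected the infected cells during 1 week. There was 1 anti-Flag ChIP-Seq library per condition, so peak values have no replicates and were not tested between conditions. The list from PRDM16-expressing cells held 11271 peaks with a median fold enrichment of 5.27, the signal at a summit over its local background. The vector list held 67 peaks, of which 0 lay in or within 10 kb of the 9 genes. In the PRDM16 list 14 peaks lay in or within 10 kb of 6 of the 9 genes, against 51.4% of all tested genes having at least 1. A promoter peak, with its centre within 2 kb of a RefSeq transcription start site (TSS), was present at 5 of 9 genes, *Per2*, *Cry1*, *Cry2*, *Csnk1d*, and *Csnk1e*, against 43.3% of all tested genes. Of the members with such a peak 1 passed the test in aorta (*Cry1*), and *Ciart* passed it without a peak in or within 10 kb of the gene. The study's own list of differentially expressed genes with a promoter peak, by a test its Methods do not name, holds *Per2*, *Cry1*, and *Csnk1e* as upregulated. The peak nearest to *Ciart* had its centre 12.4 kb upstream of the TSS, and the 10 kb limit was set after the values were seen. All positions below are on GRCm38.

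The PER genes encode the proteins that carry the repressor complex and are the substrates of the kinases. *Per1* (ENSMUSG00000020893, chromosome 11, forward strand, 69095217 to 69109960) was at 24.24, 28.44, and 25.02 TPM in controls and at 37.47, 50.6, and 30.17 TPM in Prdm16SMKO aortas. All 3 Prdm16SMKO values were above all control values, the lowest of them by little. The means were 25.9 ± 2.23 and 39.4 ± 10.35 TPM (SD, n = 3 each), and the log2 fold change was 0.57 (standard error 0.19, 95% interval 0.15 to 1.00, adjusted *P* = 0.24 by limma), which did not pass over all genes. After rescaling it was 0.70 (adjusted *P* = 0.0754 by limma). The 250 bases before the *Per1* TSS at 69098949 held 1 E-box, CACGTG, 166 bases before the start. The letters AGGTCA, the core of the RORE bound by REV-ERB and ROR proteins, lay 137 bases before it (14.02% of all windows). An E-box is found in 6.02% of 32851 windows of 250 bases before RefSeq mouse TSSs. The sequence is shown because CLOCK:BMAL1 is known to act at this letter pattern, with the E-box in capitals (chr11:69098699-69098948, forward strand, from RefSeq, GRCm38).
*Per1* upstream: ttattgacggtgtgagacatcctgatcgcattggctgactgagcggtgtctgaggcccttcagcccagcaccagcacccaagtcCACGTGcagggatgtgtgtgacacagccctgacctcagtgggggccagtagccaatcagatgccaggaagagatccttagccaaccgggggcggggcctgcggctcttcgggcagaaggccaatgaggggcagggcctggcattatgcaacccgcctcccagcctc
No PRDM16 peak lay in *Per1*. Of the pair within 10 kb of the gene, from 69088331 to 69088842 and from 69117919 to 69118303, the first had its nearest TSS at *Vamp2* and the second at *Hes7*.

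*Per2* (ENSMUSG00000055866, chromosome 1, reverse strand, 91415982 to 91459324) was at 26.23, 21.13, and 16.48 TPM in controls and at 27.08, 43.78, and 28.62 TPM in Prdm16SMKO aortas. The groups did not overlap, but the lowest Prdm16SMKO value and the highest control value lay close together. The log2 fold change was 0.63 (standard error 0.22, 95% interval 0.12 to 1.14, adjusted *P* = 0.28 by limma), and after rescaling it was 0.75 (adjusted *P* = 0.0700 by limma). Neither value passed. *Per2* had a PRDM16 peak in an intron from 91458521 to 91458818, with its centre 659 bp downstream of the TSS at 91459328. Its fold enrichment of 6.20 exceeded 72.1% of all peaks listed. The 61 bases around its summit, on the strand of the gene, are given to show the sequence at the point of highest signal; no E-box lies in the peak (chr1:91458704-91458764, GRCm38).
*Per2* summit: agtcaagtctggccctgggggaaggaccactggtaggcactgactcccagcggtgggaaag
A second peak within 10 kb, from 91414188 to 91414512 with a fold enrichment of 8.44, lay beyond the 3′ end of *Per2* and had its nearest TSS at *Hes6*.

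*Per3* (ENSMUSG00000028957, chromosome 4, reverse strand, 151003652 to 151044665) was at 22.06, 14.87, and 10.64 TPM in controls and at 19.87, 27.52, and 18.85 TPM in Prdm16SMKO aortas. The groups overlapped through control aorta 1, the highest control. The log2 fold change was 0.52 (standard error 0.26, 95% interval −0.07 to 1.11, adjusted *P* = 0.45 by limma). The gene lies 3.27 Mb from *Prdm16* on the same chromosome, and within 20 Mb of *Prdm16* 21 of 253 tested genes passed (8.3%), against 147 of 15415 elsewhere (0.954%), and the part of this position in the value of *Per3* was not tested. The whole span of *Per3* lies in that of *Camta1* on the same strand, but the annotated exons share 0 bases. The 250 bases before the *Per3* TSS held 2 copies of the D-box TTATGTAA, at 205 and 158 bases before the start, a sequence bound by DBP, TEF, and HLF, the clock's output factors. A D-box was in 0.82% of all such windows and 2 or more in 0.018%. The window is shown with the D-boxes in capitals (chr4:151044666-151044915, reverse strand, RefSeq, GRCm38).
*Per3* upstream: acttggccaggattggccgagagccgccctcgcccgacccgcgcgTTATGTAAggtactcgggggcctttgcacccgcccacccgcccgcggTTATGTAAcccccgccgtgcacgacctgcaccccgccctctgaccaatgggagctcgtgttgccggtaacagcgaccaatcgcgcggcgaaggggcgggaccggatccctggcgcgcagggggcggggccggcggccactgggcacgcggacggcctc
The nearest PRDM16 peak had its centre 13.0 kb upstream of the *Per3* TSS. Summed over the 3 PER genes, the level was 72.53, 64.44, and 52.14 TPM in controls and 84.42, 121.9, and 77.64 TPM in Prdm16SMKO aortas, without overlap.

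The cryptochromes are the stronger repressors in the complex, and in the aorta the pair differed in level and in change. *Cry1* (ENSMUSG00000020038, chromosome 10, reverse strand, 85131700 to 85185064) was at 1.65, 2.03, and 2.02 TPM in controls and at 5.76, 7.75, and 5.09 TPM in Prdm16SMKO aortas. Every Prdm16SMKO aorta was above every control. *Cry1* rose by 1.64 on the log2 scale (standard error 0.23, 95% interval 1.13 to 2.15, adjusted *P* = 0.0119 by limma), and with 1.76 after rescaling. It passed without any single aorta (adjusted *P* = 0.0216 to 0.0455 by limma) and missed the threshold only without limma's mean-variance trend (0.0512).

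*Cry1* carried 1 PRDM16 peak, from 85184395 to 85185043, which ended short of the TSS at 85185054 and had its centre in exon sequence annotated as untranslated. Its fold enrichment of 7.03 was above that of 82.4% of the peaks, and its summit lay 228 bp downstream of the TSS. The 250 bases before the TSS, outside this peak, held an E-box 60 bases and an E′-box (CACGTT, here read on the other strand as AACGTG) 79 bases before the start. An E′-box was in 3.85% of all windows, and both boxes together were in 0.301%. No E-box, E′-box, or D-box lay in the peak. The window is shown with both boxes in capitals (chr10:85185055-85185304, reverse strand, RefSeq, GRCm38), and the 29 bases at the summit follow (chr10:85184812-85184840, reverse strand).
*Cry1* upstream: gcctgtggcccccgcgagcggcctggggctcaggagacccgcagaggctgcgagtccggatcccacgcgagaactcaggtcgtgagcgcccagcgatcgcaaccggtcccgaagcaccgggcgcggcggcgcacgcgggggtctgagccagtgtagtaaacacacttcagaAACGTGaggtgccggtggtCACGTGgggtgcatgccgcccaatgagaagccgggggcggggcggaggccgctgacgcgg
*Cry1* summit: cgagcctcccggggctgctgcgaccagct

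*Cry2* (ENSMUSG00000068742, chromosome 2, reverse strand, 92403646 to 92434043) was at 22.77, 18.59, and 18.1 TPM in controls and at 20.31, 25.31, and 17.39 TPM in Prdm16SMKO aortas. The groups overlapped on both sides. The log2 fold change was 0.07 (standard error 0.17, 95% interval −0.31 to 0.46, adjusted *P* = 0.90 by limma), an interval that leaves room for a change in either direction, and it was −0.07 without Prdm16SMKO aorta 2. Of the annotated exons of *Cry2* 295 bp (4.7%) are shared with D930015M05Rik on the other strand, which was at 0.2 to 1.91 TPM in controls and 0.64 to 1.5 TPM in Prdm16SMKO aortas. *Cry2* had 3 PRDM16 peaks, where 3.43% of all tested genes had 3 or more in the gene. The first, from 92433564 to 92434031, had a fold enrichment of 5.58 and its summit in a coding exon, 195 bp from the TSS. The others, in introns, ran from 92432131 to 92432361 with a fold enrichment of 4.57 and from 92431159 to 92431592 with 4.22. An E′-box lay 166 bases before the TSS, shown in capitals for comparison with *Cry1* (chr2:92434070-92434319, reverse strand, RefSeq, GRCm38).
*Cry2* upstream: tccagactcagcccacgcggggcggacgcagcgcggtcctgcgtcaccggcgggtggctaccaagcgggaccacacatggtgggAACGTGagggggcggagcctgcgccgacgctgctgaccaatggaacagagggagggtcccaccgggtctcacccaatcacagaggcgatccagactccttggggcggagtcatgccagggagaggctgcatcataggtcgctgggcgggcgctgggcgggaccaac

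The ratio of *Cry1* to *Cry2* within an aorta, which does not depend on how a library is scaled, was 0.0725, 0.109, and 0.112 in controls and 0.284, 0.306, and 0.293 in Prdm16SMKO aortas. The ratios did not overlap. With 0.1 TPM added to each gene, the group means of the log2 ratio differed by 1.57 (exact permutation test, two-sided, *P* = 0.1, the smallest that 3 against 3 aortas allow). *Cry2* stayed the more abundant cryptochrome in all 6 aortas.

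**Figure D2:**
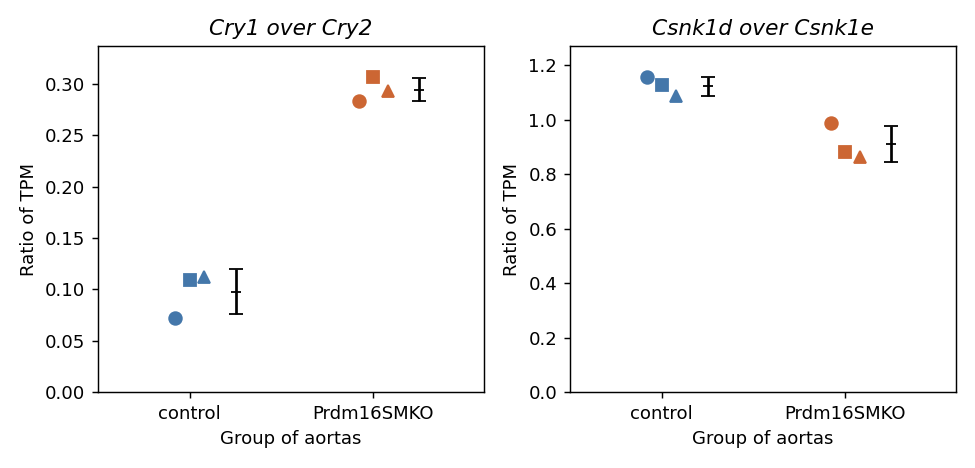
Ratio of TPM of *Cry1* over *Cry2* and of *Csnk1d* over *Csnk1e* in each aorta, by group, with the mean and SD of 3 aortas beside the points and both axes starting at 0. The *Cry1* to *Cry2* ratio was 0.0978 in controls and 0.294 in Prdm16SMKO aortas, and the *Csnk1d* to *Csnk1e* ratio was 1.12 and 0.911, and in neither did the groups overlap.

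*Ciart* (ENSMUSG00000038550, chromosome 3, reverse strand, 95878503 to 95882251) was at 5.7, 5.75, and 4.29 TPM in controls and at 15.45, 28.73, and 13.63 TPM in Prdm16SMKO aortas. All Prdm16SMKO aortas were above all controls, and aorta 2 was far above the other two, so that the SD was 8.24 TPM in this group against 0.829 TPM in controls. *Ciart* rose by 1.79 on the log2 scale (standard error 0.27, 95% interval 1.17 to 2.41, adjusted *P* = 0.0199 by limma), the largest of the 9 genes, and with 1.91 after rescaling. The direction was the same in all alternatives, but it missed the threshold without control aorta 1 (adjusted *P* = 0.0754 by limma), without control aorta 3 (0.0835), without a TPM filter (0.0621), and without the trend (0.114). The antisense gene C920021L13Rik spans *Ciart* and was at 1.97 to 3.14 TPM in controls and 1.95 to 2.27 TPM in Prdm16SMKO aortas, and the annotated exons of the pair share 0 bases.

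The 250 bases before the *Ciart* TSS held 3 copies of the E-box CACGTG, at 116, 58, and 44 bases before the start. Of the 32851 windows 6.02% held 1 or more copies, 0.429% 2 or more, and 20 windows (0.061%) 3 or more. The window is printed because its member changed most, with the E-boxes in capitals (chr3:95882229-95882478, reverse strand, RefSeq, GRCm38).
*Ciart* upstream: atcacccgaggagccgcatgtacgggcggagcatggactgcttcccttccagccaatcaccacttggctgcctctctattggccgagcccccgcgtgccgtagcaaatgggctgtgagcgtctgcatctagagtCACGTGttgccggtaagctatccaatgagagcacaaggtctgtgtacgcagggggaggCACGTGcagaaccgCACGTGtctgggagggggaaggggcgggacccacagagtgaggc
No PRDM16 peak lay in *Ciart* or within 10 kb of it. The nearest, from 95894028 to 95895130 with a fold enrichment of 10.5, had its centre 12.4 kb upstream of the TSS.

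The kinase genes were the most abundant of the 9. *Csnk1d*, for CK1δ (ENSMUSG00000025162, chromosome 11, reverse strand, 120961749 to 120991330), was at 53.95, 43.12, and 41.11 TPM in controls and at 40.68, 49.05, and 36.38 TPM in Prdm16SMKO aortas. *Csnk1e*, for CK1ε (ENSMUSG00000022433, chromosome 15, reverse strand, 79417856 to 79455566), was at 46.7, 38.28, and 37.85 TPM in controls and at 41.23, 55.59, and 42.15 TPM in Prdm16SMKO aortas. Both overlapped between the groups. The log2 fold change was −0.13 for *Csnk1d* (95% interval −0.49 to 0.22, adjusted *P* = 0.77 by limma) and 0.17 for *Csnk1e* (95% interval −0.18 to 0.52, adjusted *P* = 0.69 by limma). After rescaling *Csnk1d* was at −0.01, and *Csnk1e* was at 0.29 without overlap (adjusted *P* = 0.16 by limma). The study lists *Csnk1e* as upregulated. Each gene shares a small part of its exons with an antisense gene, 63 bp (1.3%) of *Csnk1d* with Gm28192 and 267 bp (4.1%) of *Csnk1e* with Gm16059, and whether reads were counted by strand is not given in the sources used here. Their summed level was 78.96 to 100.65 TPM in controls and 78.53 to 104.64 TPM in Prdm16SMKO aortas.

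The ratio of *Csnk1d* to *Csnk1e* was 1.16, 1.13, and 1.09 in controls and 0.987, 0.882, and 0.863 in Prdm16SMKO aortas. *Csnk1d* was the more abundant kinase in all 3 controls and *Csnk1e* in all 3 Prdm16SMKO aortas. With 0.1 TPM added to each gene, the group means of the log2 ratio differed by −0.30 (exact permutation test, two-sided, *P* = 0.1, the smallest possible here, not adjusted over the pair of ratios examined), and *P* was 0.2 without control aorta 1. This design cannot reach 0.05 for a ratio, so the values are given as a description, and how often the ratio of other gene pairs separates the groups was not computed.

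Both kinase genes had PRDM16 peaks. *Csnk1d* had a peak upstream, from 120991500 to 120991892 with its centre 363 bp before the TSS, and another in an intron, from 120990738 to 120991119 with its centre 405 bp after it. Both had a fold enrichment of 3.72, above that of 8.4% of the peaks. *Csnk1e* had 4 peaks in the gene, where 1.53% of all tested genes had as many. The one at a TSS, from 79441709 to 79441958, was among the weakest of the list with a fold enrichment of 3.12, above 2.5% of the peaks. The highest of the 4, with 5.27, ran from 79438250 to 79438782 in an intron, 3302 bp downstream of the nearest TSS, and the others, at 79436492 to 79437012 and 79435766 to 79436062, had 4.03 each. The letters AGGTCA were in 2 of these intron peaks, against 21.05% of all PRDM16 peaks, and the GATA factor motif AGATAA was in 1, against 9.47%. The promoter peaks of both kinase genes were absent at a q of at most 0.001, where *Per2*, *Cry1*, and *Cry2* had one and 39.6% of all tested genes did. When the promoter was taken as 1 kb before and 100 bp after the TSS, *Csnk1d* and *Csnk1e* were the members with a promoter peak, against 14.1% of all tested genes. Of 4 RefSeq windows before *Csnk1e* none held an E-box, E′-box, or D-box.

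**Figure D3:**
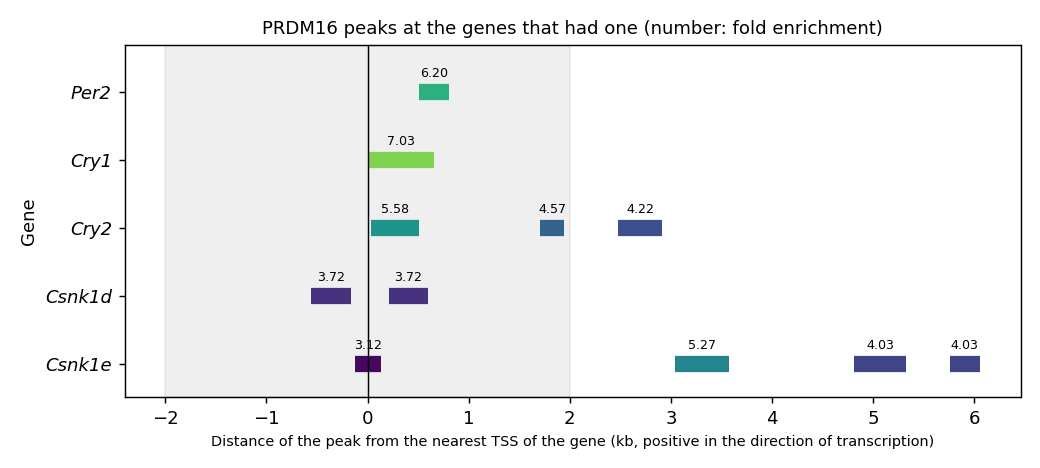
PRDM16 peaks in or at the promoter of the 5 clock genes that had one, drawn to scale by distance from the nearest TSS of the gene (kb, positive in the direction of transcription), with the fold enrichment above each bar and in its colour, and the 2 kb promoter window shaded. The peaks of *Per2*, *Cry1*, and *Cry2* in the window lie downstream of the TSS, *Csnk1d* has one on either side, and *Csnk1e* has one at the TSS and 3 further into the gene.

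*Fbxl21* (ENSMUSG00000035509, chromosome 13, forward strand, 56522472 to 56537898) was the lowest of the 9, at 1.38, 1, and 0.83 TPM in controls and at 1.39, 1.34, and 0.44 TPM in Prdm16SMKO aortas. The groups overlapped, and Prdm16SMKO aorta 3 was the lowest of all. The log2 fold change was −0.13 with a 95% interval of −1.23 to 0.98 (adjusted *P* = 0.95 by limma), the widest of the 9, and at this level a fall of 1 on this scale was not detectable. The nearest PRDM16 peak lay 66.5 kb downstream of its TSS, and its upstream window held no E-box, E′-box, or D-box.

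**Figure D4:**
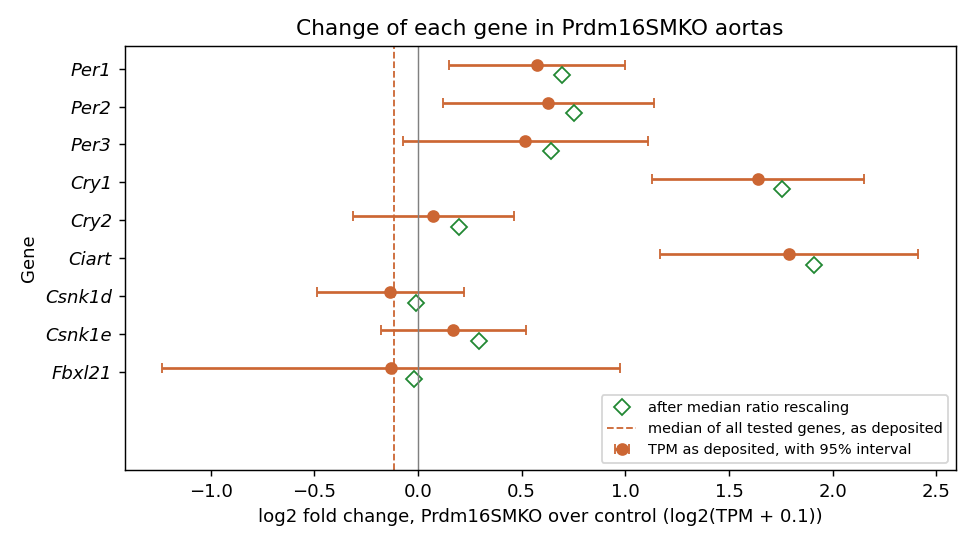
Log2 fold change of each gene, Prdm16SMKO over control aortas, from limma on log2(TPM + 0.1), with 95% intervals (points and bars) and after median ratio rescaling (diamonds), and a dashed line at the median of all tested genes, −0.12. The intervals of *Cry1* and *Ciart* lie above 1, those of *Per1* and *Per2* above 0, and the other 5 include 0.

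TPM are scaled by transcript length, so the levels of the 9 genes can be set in order. In controls *Csnk1d* was highest at a mean of 46.1 TPM, followed by *Csnk1e* (40.9 TPM), *Per1* (25.9 TPM), *Per2* (21.3 TPM), *Cry2* (19.8 TPM), *Per3* (15.9 TPM), *Ciart* (5.25 TPM), *Cry1* (1.90 TPM), and *Fbxl21* (1.07 TPM). *Csnk1d* and *Csnk1e* overlapped in range, as did each neighbour from *Per1* to *Per3*, while the steps below *Csnk1e*, *Per3*, *Ciart*, and *Cry1* were free of overlap. In Prdm16SMKO aortas *Csnk1e* came first at 46.3 TPM, and every neighbour from there down to *Ciart* at 19.3 TPM overlapped. The levels of *Ciart* thus lay below all those of *Cry2* in controls and overlapped them in Prdm16SMKO aortas. *Cry1* remained below *Ciart* and above *Fbxl21* in both groups without overlap.

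Within the groups the 9 genes varied in part together. Prdm16SMKO aorta 2 was the highest of its group for 8 of the 9 genes, against 60.7% of all tested genes as deposited and 35.8% after rescaling, where it was again highest for 8. Taken relative to the group means over 6 aortas, and as a description only, since all genes of an aorta share its library, Pearson's r between 2 members ran from 0.071 for *Per3* and *Cry1* to 0.983 for *Cry2* and *Csnk1d*. *Per1* varied most like *Cry1* (r = 0.929), and *Per2* most like *Csnk1e* (0.944) and *Per3* (0.932). All these correlations used TPM as deposited, and the part of the library scale in them was not tested. Of all tested genes, those most like *Cry1* by this measure were *Slc5a3*, *Zfp944*, and *Trmt10b* (0.995 to 0.998), and those most like *Ciart* were *Plekhh3*, *Rmnd1*, and *Gm43805* (0.997 to 0.999). The same measure placed *Ifrd1* beside *Per1* (0.996), *Usp4* beside *Per2* (0.999), *Zdhhc17* beside *Per3* (0.999), *Hbp1* beside *Cry2* (1.000), *Ehbp1l1* beside *Csnk1d* (1.000), *Zfp821* beside *Csnk1e* (0.999), and *Usp54* beside *Fbxl21* (0.999). A search of all tested genes over 6 aortas returned a value near 1 for every member. Such closest matches are therefore no measure of shared regulation.

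Other genes that act on PER and CRY proteins did not pass the test. Of 26 listed kinases, phosphatases, ubiquitin ligases, and partners 25 were tested and 0 were called. By limma 6 had an unadjusted *P* under 0.05, against 1986 of all 15668 tested genes. A log2 fold change below 0 was found in 22, against 10632 of all tested genes. The median was −0.14 against −0.12 for all tested genes, and after rescaling it was −0.02 against 0.00. *Timeless*, whose product binds CRY proteins and acts in DNA replication, was at 3.05, 2.82, and 2.6 TPM in controls and 1.15, 1.41, and 1.81 TPM in Prdm16SMKO aortas, without overlap (log2 fold change −0.93, adjusted *P* = 0.17 by limma). *Btrc*, for the ubiquitin ligase adaptor β-TrCP that recognizes phosphorylated PER proteins, was at −0.37 without overlap (adjusted *P* = 0.35 by limma). The deubiquitinase gene *Usp2* was at 0.48 (adjusted *P* = 0.44 by limma). Of 15 genes of co-repressors known from PER complexes 0 were called by limma (0 with an unadjusted *P* under 0.05), with a median of −0.07, and the largest changes were those of *Suv39h2* (0.28), *Hdac2* (−0.26), and *Mta2* (−0.17).

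In the list of clock activators and output genes 2 of 13 tested were called by limma, and 9 had an unadjusted *P* under 0.05. Of all 15668 tested genes 168 were called and 1986 had an unadjusted *P* under 0.05 by limma. *Npas2*, a partner of BMAL1, was at 12.85, 8.7, and 9.37 TPM in controls and 3.42, 2.04, and 2.41 TPM in Prdm16SMKO aortas (−1.95 as a log2 fold change, with an adjusted *P* of 0.0079 by limma), and *Bhlhe40*, a repressor that competes for E-boxes, was at 1.11 on this scale (adjusted *P* = 0.0089 by limma). The activator genes *Arntl*, for BMAL1, and *Clock* did not pass as deposited, whereas the study lists *Arntl* as downregulated. *Arntl* was at 2.71, 1.7, and 2.18 TPM in controls and 0.77, 0.53, and 0.62 TPM in Prdm16SMKO aortas, without overlap (log2 fold change −1.62, adjusted *P* = 0.0721 by limma). *Clock* was at 18.44 to 22.11 TPM in controls and 12.55 to 13.85 TPM in Prdm16SMKO aortas, also without overlap (−0.60, adjusted *P* = 0.0875 by limma). After rescaling 7 of the 13 were called by limma, with *Bhlhe40*, *Bhlhe41*, *Dbp*, *Hlf*, *Nr1d2*, and *Tef* higher and *Npas2* lower. *Dbp*, *Tef*, and *Hlf*, whose products bind the D-box, had log2 fold changes of 0.49, 0.51, and 0.63 as deposited (adjusted *P* = 0.24 to 0.25 by limma). The groups overlapped for *Dbp* and *Hlf* and did not for *Tef*. *Nfil3*, in the same list, went the other way, at −0.65 without overlap (adjusted *P* = 0.32 by limma). Signals from outside can also induce *Per1*, through the glucocorticoid receptor or CREB, which binds the CRE. The CRE TGACGTCA, found in 1.55% of all upstream windows, was in none of those of the 7 clock genes that had one. *Per2* and *Csnk1d* had no window, and sequence more than 250 bases before a TSS was not searched. The shorter core TGACGT, found in 6.47% of all windows, lay 132 bases before a second *Per1* TSS at 69100152, in a window without an E-box. Of 5 glucocorticoid-induced genes 0 were called by limma (1 with an unadjusted *P* under 0.05), among them *Tsc22d3* (0.49, adjusted *P* = 0.24), *Sgk1* (−0.30), and *Fkbp5* (0.25). Of 10 CREB and immediate-early genes *Nr4a1* was called, and it was lower, with 85.05 to 110.33 TPM in controls and 29.89 to 51.8 TPM in Prdm16SMKO aortas (log2 fold change −1.32, adjusted *P* = 0.0199 by limma).

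**Figure D5:**
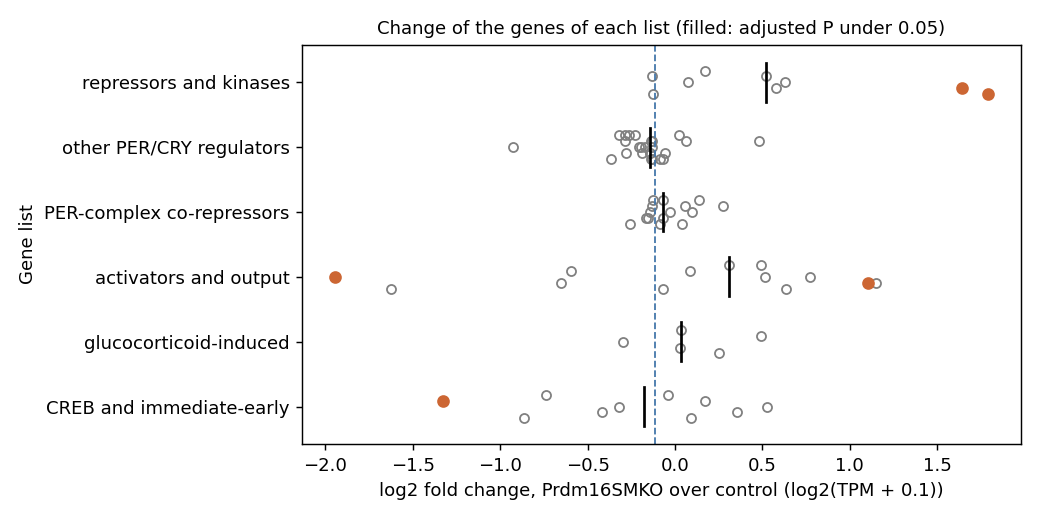
Log2 fold change, Prdm16SMKO over control aortas, of each tested gene in 6 lists, with genes that passed an adjusted *P* of 0.05 filled, a black bar at each list's median, and a dashed line at the median of all tested genes. The 9 repressor and kinase genes have a median of 0.52, the 25 other regulators of PER and CRY lie around the median of all genes, and the activators and output genes spread to both sides.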

How the data were processed

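The authors deposited TPM, 1 column per aorta, from poly(A)-selected libraries. The submitters' processing notes name STAR 2.7.8a and RSEM 1.3.3, and the annotation behind the TPM is not given in the sources used here. TPM keep no counts, so depth is unknown. A single gene held 20.23% to 28.24% of the TPM of an aorta. The authors aligned ChIP-Seq reads to GRCm38 (Bowtie2) and called peaks per library (MACS2, q-value 0.01, genome size preset -g hs, control library not stated). The deposited lists give fold enrichment as a ratio, −log10 p-value, −log10 q-value, and a score derived from it, which was not used. The IgG libraries were not analysed here.

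Aortas were grouped by title and genotype, and columns named WT and KO were read as control and Prdm16SMKO. The test was limma 3.58.1 in R 4.3.3 (lmFit, eBayes with trend) on log2(TPM + 0.1), filtered at a mean TPM of 0.5, with Benjamini-Hochberg adjustment over all 15668 genes, and was checked on simulated data. Fold changes on this scale understate the change of low genes. The labels do not say whether aortas of a group are separate animals, so *P* values measure the spread between these samples. Gene positions are from GENCODE, and TSSs and sequences from RefSeq (GRCm38), which matched 7 of the 9 genes upstream, without *Per2* and *Csnk1d*. Motifs on both strands were CACGTG (E-box), CACGTT (E′-box, never overlapping an E-box), TTATGTAA (D-box), TGACGTCA (CRE) and its core TGACGT, the RORE core AGGTCA, and the GATA motif AGATAA.

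The 9 genes and the lists were chosen with earlier results of these data known. Of each other list the called genes were named, or otherwise the 3 with the largest change. *Arntl*, *Clock*, *Nfil3*, those called only after rescaling, and genes nearest to peaks were named after their values were seen. The 10 kb limit was also set then. The most correlated genes within groups were also named. Alternatives were pseudocounts of 1 and 0.01, other filters, scalings, no trend, a replicate block, leaving out each aorta, other promoter windows, and stricter q. Software was Python 3.11.15 with scipy 1.17.1, pysam 0.24.0, and matplotlib 3.10.9.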

Additional observations from a re-analysis of the deposited data

How the results depend on the processing

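*Cry1*, *Ciart*, *Per1*, *Per2*, *Per3*, and *Csnk1e* kept a log2 fold change above 0 in all alternatives. The number of genes called by limma, 168, became 413 after median ratio rescaling, 392 after quantile normalization, 110 without a filter, 48 without the trend, and 91 to 141 when 1 aorta was left out. The count among the 9 genes, 2, became 1 without a filter, 0 without the trend (*Cry1* 0.0512 and *Ciart* 0.114 as adjusted *P*), and 1 to 2 with an aorta left out, with 1 without control aorta 1 or 3. The called genes in the 5 other lists, 3, became 8 after rescaling, 7 after quantile normalization, 0 without the trend, and 2 to 3 with an aorta left out. Signs turned for *Csnk1d* after quantile normalization (0.0086), for *Cry2* without Prdm16SMKO aorta 2 (−0.0687, range with an aorta left out −0.0687 to 0.2008), and for *Fbxl21* without Prdm16SMKO aorta 3 (0.3512) or control aorta 1 (0.0544; range −0.3809 to 0.3512), with none called in either fit. The difference in the *Cry1* to *Cry2* ratio was 1.23 with a pseudocount of 1 and 1.37 to 1.67 with an aorta left out, and that of *Csnk1d* to *Csnk1e* was −0.36 to −0.27. Of the 9 genes 2 had a promoter peak with a window from 1 kb upstream to 100 bp downstream, 3 at a q of at most 0.001, and 3 at 1e-05, since the centres lie downstream and the kinase peaks are weak. The cause of the other shifts was not tested.

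Same-numbered aortas did not deviate from their group means together (correlations of −0.0246, −0.07, and −0.009), so the numbers were not taken as pairs. With the replicate number as a block 184 genes were called, and of the 9 genes 2. The difference in the *Csnk1d* to *Csnk1e* ratio had an exact permutation *P* of 0.25 within replicate numbers, the smallest 3 pairs allow, and of 0.2 without control aorta 1.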
